A study of Mus musculus with 28 samples.

Results

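The chaperones and disulfide isomerases of the endoplasmic reticulum (ER) were examined here in mouse liver, as 10 genes of the 18193 with a lead probe set in the deposited array data: Hspa5, Hsp90b1 and Hyou1, the lectin chaperones Calr and Canx, the disulfide isomerases Pdia3, Pdia4 and Pdia6, and the ER luminal proteins Dnajc3 and Manf. They were chosen by name, with 26 probe sets annotated to them, and each gene was represented by its lead probe set, the one of highest mean level over all 28 arrays. CAR-deficient and wild-type female mice, all of the C3H/HeN strain by their labels, were studied on the same diets. How the deficient line was made is not given in the sources used here. CAR is the nuclear receptor encoded by Nr1i3. All groups received Lieber's liquid isocaloric diet: with ethanol plus ellagic acid (EA diet), with ethanol plus trans-resveratrol (RSV diet), with ethanol alone (EtOH diet) or without ethanol (control diet). Thus both polyphenol diets also held ethanol, with a polyphenol intake of about 50 mg per kg body weight and day. By the study's diet formula, all diets with ethanol held less maltose and dextrin than the control diet. In a comparison with control, ethanol and this change of carbohydrate cannot be told apart. Mice were 5 weeks old when the experiment began, were acclimated for 1 week, took their diet freely for 1 week and then received 12 g a day for 4 weeks. Each array held liver RNA of 1 mouse, with 3 CAR-deficient and 4 wild-type mice per diet. Array values are listed below in order of replicate number. On the wild-type EtOH diet the replicates are numbered 1, 3, 4 and 5, so that replicate 3 is listed second and replicate 5 last. In the other groups the numbers run on from 1 without a gap.

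The ER lumen is where secreted and membrane proteins are folded, and hepatocytes, which secrete most plasma proteins, depend heavily on it. Hspa5 (BiP) binds unfolded chains and holds the stress sensors of the ER membrane inactive, calnexin and calreticulin retain glycoproteins until their glycans are trimmed, and the disulfide isomerases form and reshuffle disulfide bonds. When unfolded proteins accumulate, the sensors ATF6, IRE1 and PERK raise transcription of many of these genes together, a programme known as the unfolded protein response.

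The deposited values were on a log2 scale and had been summarised by the authors with the Distribution Free Weighted (DFW) method, apart for the genotypes. Because DFW sets the spread of every probe set anew, the differences below are differences of DFW values and no calibrated log2 fold changes, and levels were not compared between genotypes or between genes. Probe sets whose standard deviation over the arrays of a genotype was at most 0.01 are called compressed. These were 79.3% of the 45011 probe sets tested in CAR-deficient mice and 85.3% of the 45037 tested in wild-type mice. Of the 26 probe sets of the ER genes, 6 were compressed in CAR-deficient mice, the Canx lead among them, and 5 in wild-type mice. The means of the lead probe sets ranged over 9.51 to 12.74 in CAR-deficient mice and 9.09 to 12.0 in wild-type mice. Since whole liver was extracted, fewer cells of a type and less RNA per cell cannot be told apart.

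Among marker lists, 6 hepatocyte genes were measured and their mean level was 13.22 to 13.31 on the EA, 13.29 to 13.45 on the RSV, 13.28 to 13.51 on the EtOH and 13.2 to 13.37 on the control arrays of wild-type mice. In CAR-deficient mice it was 15.91 to 15.98 on the EA, 15.86 to 16.02 on the RSV, 16.01 to 16.69 on the EtOH and 15.96 to 16.06 on the control arrays. There Alb, compressed, read 27.23 to 27.25 and Apoa1 14.17 to 17.94. Such values are unusually high for a log2 array scale. In these mice 6 probe sets exceeded 15 on at least 1 array, and the cause was not tested. All 5 pancreatic acinar genes and 3 of 4 plasma and B cell genes were compressed. These cell types were included because both are rich in ER chaperones. Kupffer cell markers moved with all 3 ethanol diets of wild-type mice: 6 of 8 fell against control on each (limma; 3 of the 8 leads were compressed), and 1 rose on EA and on RSV. Their mean level was 8.32 to 8.36 on the EA, 8.28 to 8.41 on the RSV, 8.29 to 8.43 on the EtOH and 8.49 to 8.58 on the control arrays. Of 6 sinusoidal endothelial markers (2 compressed), 3 rose on EA against control and 1 on EA against EtOH, while 1 fell on EtOH and 1 on RSV against control, and their mean level was 9.16 to 9.27 on the EA, 9.07 to 9.12 on the RSV, 9.03 to 9.07 on the EtOH and 8.98 to 9.19 on the control arrays. Of 6 stellate cell markers (2 compressed), 2 rose on EA and 3 on RSV against control, with a mean level of 8.48 to 8.55 on the EA, 8.46 to 8.58 on the RSV, 8.39 to 8.59 on the EtOH and 8.45 to 8.55 on the control arrays. Of all probe sets, 2.2% rose and 3.35% fell on EtOH against control, 6.06% and 8.15% on EA, and 9.07% and 10.7% on RSV. On EA against EtOH 1.1% rose. Most of all probe sets were compressed, so these shares are no like baseline for the marker lists. With 3 of the 8 Kupffer leads compressed, not all of the 6 falls were of uncompressed leads, and compressed calls have no readable size. The part of these markers in the results below was not tested. The Nr1i3 probe set read 8.55 to 9.49 on the CAR-deficient arrays and 8.96 to 10.1 on the wild-type arrays. The sources used here do not tell whether that probe set lies in the deleted part of the gene, so it checks nothing. The EtOH replicate 1 array of CAR-deficient mice stood apart, with a mean Pearson r of 0.9826 with the other CAR-deficient arrays, against 0.9889 to 0.9932 for the others, and the differences that involve the EtOH diet of these mice are therefore also given without it.

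The promoters of the genes were read first for the ER stress response element, the sequence through which ATF6, with the CCAAT-binding factor NF-Y, acts on this gene family. The letters searched were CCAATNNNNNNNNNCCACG on both strands, in windows of 300 bases (250 before to 50 after the annotated start) taken from RefSeq, build GRCm38.p6. Of the 10 genes, 8 had a promoter in that table, all except Hyou1 and Manf. A match stood in 6 of the 8, against 39 of all 32851 promoters (0.119%). Hsp90b1 had matches on both strands, beginning 212 and 107 bases before the start. Single matches began 65 bases before the start in Hspa5, 162 in Calr, 145 in Canx, 98 in Pdia6 and 105 in Dnajc3. Pdia3 and Pdia4 each held a stretch, 29 and 108 bases before the start, that differed in 1 of the 10 fixed letters. At most 1 such mismatch was found in 1.5% of all promoters. A match is a description of letters, not of a bound site. The same letters stood in 2 of the 39 promoters available for the other ER folding genes described below (Ero1b and Creld2) and in 2 of the 29 for the genes of the unfolded protein response (Derl3 and Syvn1). The stretches below are shown because they hold a full match in 6 of the genes and a near match in Pdia3 and Pdia4. They run 5′ to 3′ on the strand of the gene, end at or before its start, and have the matching stretch in capitals (for Pdia3 and Pdia4 the stretch with 1 mismatch).
Hspa5 (chr2:34771840-34772089, plus strand): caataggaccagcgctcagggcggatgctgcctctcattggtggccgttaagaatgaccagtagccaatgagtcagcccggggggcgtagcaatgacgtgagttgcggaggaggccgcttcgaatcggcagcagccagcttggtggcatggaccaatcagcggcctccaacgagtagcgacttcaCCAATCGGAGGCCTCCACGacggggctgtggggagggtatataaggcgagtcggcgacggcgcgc
Hsp90b1 (chr10:86705525-86705694, minus strand): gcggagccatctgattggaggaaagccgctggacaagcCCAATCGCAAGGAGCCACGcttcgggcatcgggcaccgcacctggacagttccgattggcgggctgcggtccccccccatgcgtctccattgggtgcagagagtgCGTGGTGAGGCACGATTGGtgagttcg
Calr (chr8:84846964-84847133, minus strand): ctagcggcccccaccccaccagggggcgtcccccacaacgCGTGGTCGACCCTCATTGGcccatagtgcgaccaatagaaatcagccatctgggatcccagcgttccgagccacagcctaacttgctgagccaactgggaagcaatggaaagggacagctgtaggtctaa
Canx (chr11:50325689-50325858, minus strand): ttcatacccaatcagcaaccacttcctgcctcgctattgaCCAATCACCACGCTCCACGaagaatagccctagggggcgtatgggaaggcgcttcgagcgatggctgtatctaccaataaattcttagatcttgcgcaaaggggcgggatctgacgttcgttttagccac
Pdia6 (chr12:17266419-17266588, plus strand): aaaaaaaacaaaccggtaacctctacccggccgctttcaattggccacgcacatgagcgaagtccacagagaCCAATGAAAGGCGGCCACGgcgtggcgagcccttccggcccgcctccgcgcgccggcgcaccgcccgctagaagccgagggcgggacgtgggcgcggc
Dnajc3 (chr14:118937762-118937931, plus strand): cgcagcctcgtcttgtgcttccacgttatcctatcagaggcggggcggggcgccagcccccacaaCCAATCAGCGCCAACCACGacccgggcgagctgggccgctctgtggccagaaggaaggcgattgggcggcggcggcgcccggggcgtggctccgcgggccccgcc
Pdia3 (chr2:121413732-121413901, plus strand): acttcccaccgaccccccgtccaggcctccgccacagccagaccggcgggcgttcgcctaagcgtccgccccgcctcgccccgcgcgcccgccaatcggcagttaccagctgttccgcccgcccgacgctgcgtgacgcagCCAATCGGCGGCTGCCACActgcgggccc
Pdia4 (chr6:47813513-47813682, minus strand): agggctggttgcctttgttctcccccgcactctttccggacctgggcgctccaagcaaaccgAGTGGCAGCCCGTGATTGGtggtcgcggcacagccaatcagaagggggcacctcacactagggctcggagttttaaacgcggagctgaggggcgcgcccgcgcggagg

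**Figure D1:**
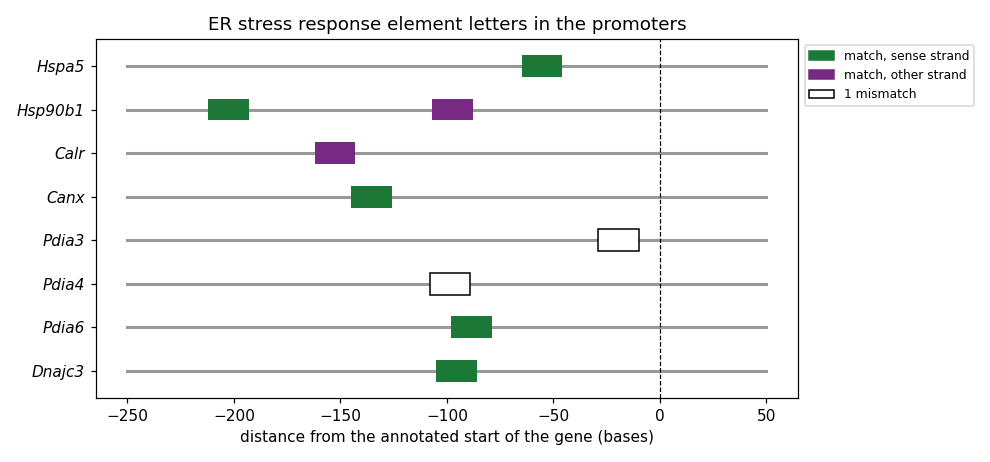
Position of the ER stress response element letters in the 8 promoters available, with the distance from the annotated start of the gene in bases on the horizontal axis. Filled bars are full matches on either strand, open bars the stretches of Pdia3 and Pdia4 with 1 mismatch, and matches are seen in 6 of the 8 promoters, and Hsp90b1 has them at 212 and at 107 bases before the start.

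The EtOH diet was compared with the control diet in wild-type mice. Each of the 10 lead probe sets had a higher mean on the EtOH diet, by 0.136 (Canx) to 0.522 (Hyou1), with a median of 0.302. Over the 3857 genes whose lead was not compressed the median difference was -0.0371, and 40.9% were above 0. Only Calr passed limma's threshold (adjusted p under 0.05 over all probe sets), 1 gene of 10, where 2.2% of all probe sets were called higher and 3.35% lower. The unadjusted p was under 0.05 for all 10. By the rank product, the test named by the study, 10 of 10 were called higher at 0.05, where 2.32% of all probe sets were. The study applied that test to values of another method (qFARMS), whereas here it was run on the DFW values. It ranks raw differences, which are very small in compressed probe sets, 85.3% of those tested in wild-type mice. All 10 leads were uncompressed in these mice, so the share of all probe sets is no like baseline for rank product or limma counts. Fitted over the 6633 uncompressed probe sets alone, limma called 9.38% higher and 17.3% lower. In 5 genes (Hspa5, Hsp90b1, Hyou1, Calr and Manf) each EtOH array was above each control array, which held for 6.19% of all probe sets.

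To ask how ellagic acid modified the response, the EA diet was compared with the EtOH diet. All 10 leads had a lower mean on the EA diet, by 0.1 (Hsp90b1) to 0.866 (Manf). Hspa5, Hyou1, Manf and Dnajc3 fell by limma, 4 of 10, where 1.26% of all probe sets were called lower and 1.1% higher. In a separate fit of the uncompressed probe sets alone, 13.7% were called lower and 9.77% higher. In the same 4 genes each EA array was below each EtOH array, which held for 5.07% of all probe sets. By the rank product, 7 of 10 were called lower, all except Hsp90b1, Canx and Pdia6, where 3.08% of probe sets were. The comparisons of EtOH with control and of EA with EtOH share the EtOH arrays, so their values are set side by side and not counted as separate evidence. Hspa5, Manf and Dnajc3 also belong to a list that the study chose on these same arrays, and its direction is not independent evidence.

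**Figure D2:**
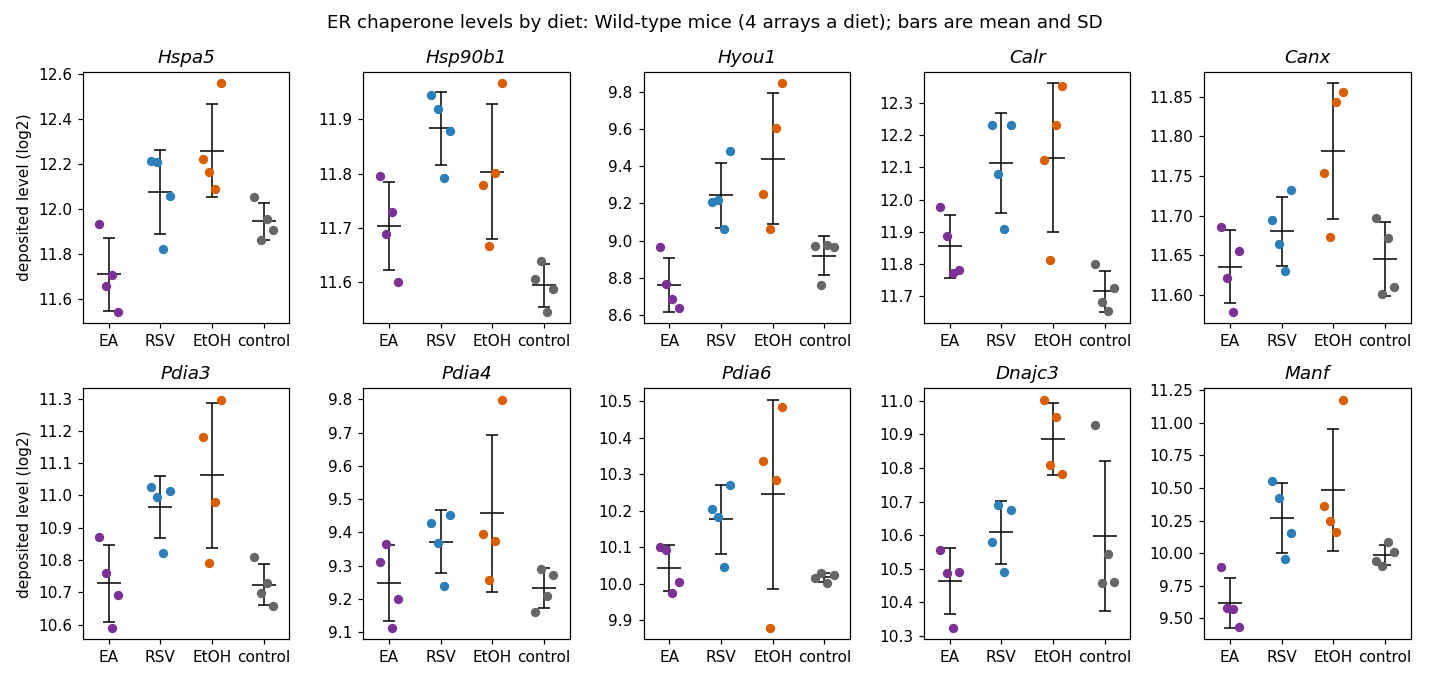
Deposited log2 level (vertical axis, its range differs between panels) of the lead probe set of each gene in wild-type mice, by diet, with 1 point per array in order of replicate number and bars for mean and SD (n = 4). The EtOH replicate 5 array is the highest point for 9 of the 10 genes, and EA arrays lie below all EtOH arrays for Hspa5, Hyou1, Dnajc3 and Manf.

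Among the chaperones of the Hsp70 and Hsp90 classes, Hspa5 read 11.93, 11.66, 11.70 and 11.54 on the EA arrays, 12.21, 12.21, 11.82 and 12.06 on the RSV arrays, 12.22, 12.16, 12.09 and 12.56 on the EtOH arrays and 12.05, 11.86, 11.95 and 11.91 on the control arrays. The EA arrays were thus below all EtOH arrays, and 3 of the 4 below all control arrays. The EA minus EtOH difference was -0.55 ± 0.12 (SE, limma adjusted p = 0.03), and that of EtOH minus control 0.315 ± 0.12 (adjusted p = 0.14). The other Hspa5 probe sets did not give the same calls. 1427464_s_at passed for EA against EtOH (-0.611 ± 0.14, adjusted p = 0.038), whereas 1447824_x_at did not (-0.227 ± 0.095, adjusted p = 0.28) but was called higher against control with EtOH (0.362 ± 0.095, adjusted p = 0.046) and with RSV (0.314 ± 0.095, adjusted p = 0.037). Hyou1, a large Hsp70-related protein that serves as nucleotide exchange factor of BiP, read 8.97, 8.77, 8.69 and 8.64 on the EA diet, 9.21, 9.22, 9.06 and 9.48 on the RSV diet, 9.25, 9.06, 9.61 and 9.84 on the EtOH diet and 8.97, 8.76, 8.98 and 8.96 on the control diet. Its EtOH arrays spread widely (SD 0.352) but did not overlap with the EA or the control arrays. EA minus EtOH was -0.677 ± 0.15 (limma adjusted p = 0.037) and EtOH minus control 0.522 ± 0.15 (adjusted p = 0.064). Its probe set 1423290_at followed the lead closely (r = 0.96 over 16 arrays) but did not pass limma's threshold in either comparison. It averaged 7.352 ± 0.0733 on EA, 7.791 ± 0.251 on EtOH and 7.453 ± 0.0917 on control (SD).

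Hsp90b1 (GRP94), the Hsp90 of the ER, read 11.80, 11.69, 11.73 and 11.60 on the EA diet, 11.94, 11.92, 11.79 and 11.88 on the RSV diet, 11.78, 11.67, 11.80 and 11.97 on the EtOH diet and 11.60, 11.64, 11.55 and 11.59 on the control diet. All RSV and all EtOH arrays were above the control arrays, and the RSV mean was the highest of the 4. It rose on the RSV diet against control, by 0.29 ± 0.058 (limma adjusted p = 0.0057), a call kept when any 1 of the 16 arrays was left out. EtOH minus control was 0.209 ± 0.058 (adjusted p = 0.056) and EA minus EtOH -0.1 ± 0.058 (adjusted p = 0.48). Its other probe set, 1438040_a_at, followed the lead loosely in wild-type mice (r = 0.34 over 16 arrays). It averaged 10.604 ± 0.312 on EA, 10.879 ± 0.295 on RSV, 10.95 ± 0.297 on EtOH and 10.797 ± 0.474 on control (SD). Its RSV mean was thus above control by less than these SDs, and its EA mean below control, unlike that of the lead.

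Of the lectin chaperones, Calr read 11.98, 11.89, 11.77 and 11.78 on the EA diet, 12.23, 12.08, 11.91 and 12.23 on the RSV diet, 12.12, 11.81, 12.23 and 12.35 on the EtOH diet and 11.80, 11.68, 11.65 and 11.72 on the control diet. The EtOH and the RSV arrays were all above the control arrays, with EtOH replicate 3 only just so. Calr rose on the EtOH diet by 0.416 ± 0.1 (SE, limma adjusted p = 0.04) and on the RSV diet by 0.399 ± 0.1 against control (adjusted p = 0.02). EA minus EtOH was -0.276 ± 0.1 (adjusted p = 0.22). All 3 Calr probe sets were called higher in both comparisons, by 0.416 to 0.436 with EtOH and by 0.399 to 0.405 with RSV. Canx, the membrane-bound lectin, spanned only 11.58 to 11.86 over the 16 arrays. Its lead was 0.136 ± 0.04 higher on the EtOH diet than on control (adjusted p = 0.071) and -0.146 ± 0.04 on EA against EtOH (adjusted p = 0.084), whereas its probe set 1422845_at passed in both, at 0.204 ± 0.045 (adjusted p = 0.023) and -0.223 ± 0.045 (adjusted p = 0.025).

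The disulfide isomerases did not pass limma's threshold by their lead probe set in any wild-type comparison. Pdia3 (ERp57), the partner of calnexin and calreticulin, read 10.87, 10.76, 10.59 and 10.69 on the EA diet, 11.03, 10.99, 10.82 and 11.01 on the RSV diet, 11.18, 10.79, 10.98 and 11.30 on the EtOH diet and 10.81, 10.70, 10.73 and 10.66 on the control diet. EtOH replicate 3 lay within the EA and control ranges, and the other EtOH arrays lay above both. EtOH minus control was 0.338 ± 0.096 (adjusted p = 0.062) and EA minus EtOH -0.334 ± 0.096 (adjusted p = 0.098). Pdia4 (ERp72) was 0.224 ± 0.099 higher with EtOH than control (adjusted p = 0.21), its EtOH replicate 5 array at 9.80 and the 15 others between 9.11 and 9.45. Pdia6 (P5) read 10.33, 9.88, 10.28 and 10.48 on the EtOH diet and 10.02, 10.03, 10.00 and 10.02 on the control diet, so that EtOH replicate 3 was the lowest of the 16 arrays and the other 3 the highest. The difference was 0.228 ± 0.098 (adjusted p = 0.2).

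Dnajc3 (p58IPK), a J-domain cochaperone of BiP, read 10.56, 10.49, 10.32 and 10.49 on the EA diet, 10.58, 10.69, 10.49 and 10.68 on the RSV diet, 11.00, 10.81, 10.95 and 10.78 on the EtOH diet and 10.93, 10.46, 10.54 and 10.46 on the control diet. Its RSV arrays were also all below the EtOH arrays, and control replicate 1 lay among the EtOH values. EA minus EtOH was -0.423 ± 0.098 (limma adjusted p = 0.045), RSV minus EtOH -0.279 ± 0.098 (adjusted p = 0.21) and EtOH minus control 0.29 ± 0.098 (adjusted p = 0.11). Its probe sets 1433887_at and 1419162_s_at were called higher with EtOH than control, by 0.301 ± 0.07 and 0.224 ± 0.046 (adjusted p = 0.029 and 0.018), and with RSV than control, by 0.228 ± 0.07 and 0.192 ± 0.046 (adjusted p = 0.039 and 0.014). The 4 other Dnajc3 probe sets correlated with the lead at r = 0.26 to 0.5 over the 16 arrays, and the fall on the EA diet was called by the lead alone. Manf, a secreted ER protein induced by ER stress, read 9.89, 9.58, 9.58 and 9.43 on the EA diet, 10.55, 10.42, 9.95 and 10.15 on the RSV diet, 10.36, 10.25, 10.16 and 11.18 on the EtOH diet and 9.94, 9.91, 10.08 and 10.01 on the control diet. All EA arrays were below all control arrays too. EA minus EtOH was -0.866 ± 0.2 (limma adjusted p = 0.045), EtOH minus control 0.5 ± 0.2 (adjusted p = 0.17) and EA minus control -0.365 ± 0.2 (adjusted p = 0.26).

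Resveratrol was compared in the same way. Against EtOH, 9 of the 10 RSV means were lower and that of Hsp90b1 higher, with a median difference of -0.099. Without EtOH replicate 5, the highest array for 9 of the genes, 5 means were lower and 5 higher, with a median of -0.005. Without EtOH replicate 3 instead, 9 means were lower and 1 higher, with a median of -0.19, so the size depended on the array left out. No gene passed limma's threshold, where 0.155% of all probe sets were called higher and 0.209% lower, and 2 of 10 (Canx and Dnajc3) had an unadjusted p under 0.05. The rank product called 1, Dnajc3, lower, where 2.41% of probe sets were. Against control, all 10 RSV means were higher, by 0.011 (Dnajc3) to 0.399 (Calr), and Hsp90b1 and Calr rose, 2 of 10, where 9.07% of all probe sets were called higher and 10.7% lower. The rank product called 6 higher (Hsp90b1, Hyou1, Calr, Pdia3, Pdia6 and Manf), where 3.23% of probe sets were.

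On the EA diet, by contrast, the means lay on both sides of control, 5 above and 5 below, with a median difference of -0.003. None passed by limma, where 6.06% of all probe sets were called higher and 8.15% lower, and none had an unadjusted p under 0.05. The rank product called Hspa5 and Manf lower, 2 of 10, where 4.91% of probe sets were. The polyphenol diets were set against each other directly at their like intake. All 10 EA means were below the RSV means, by 0.045 (Canx) to 0.65 (Manf), and 6 of 10 had an unadjusted p under 0.05. None passed limma's adjustment (lowest adjusted p = 0.41), where 0.0244% of all probe sets were called in either direction, while the rank product called 7 lower (Hspa5, Hsp90b1, Hyou1, Calr, Pdia3, Dnajc3 and Manf), where 1.48% of probe sets were. The limma result does not show that the diets acted alike: for Manf the difference was -0.65 ± 0.2 and for Hspa5 -0.367 ± 0.12 (SE, n = 4 each).

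**Figure D3:**
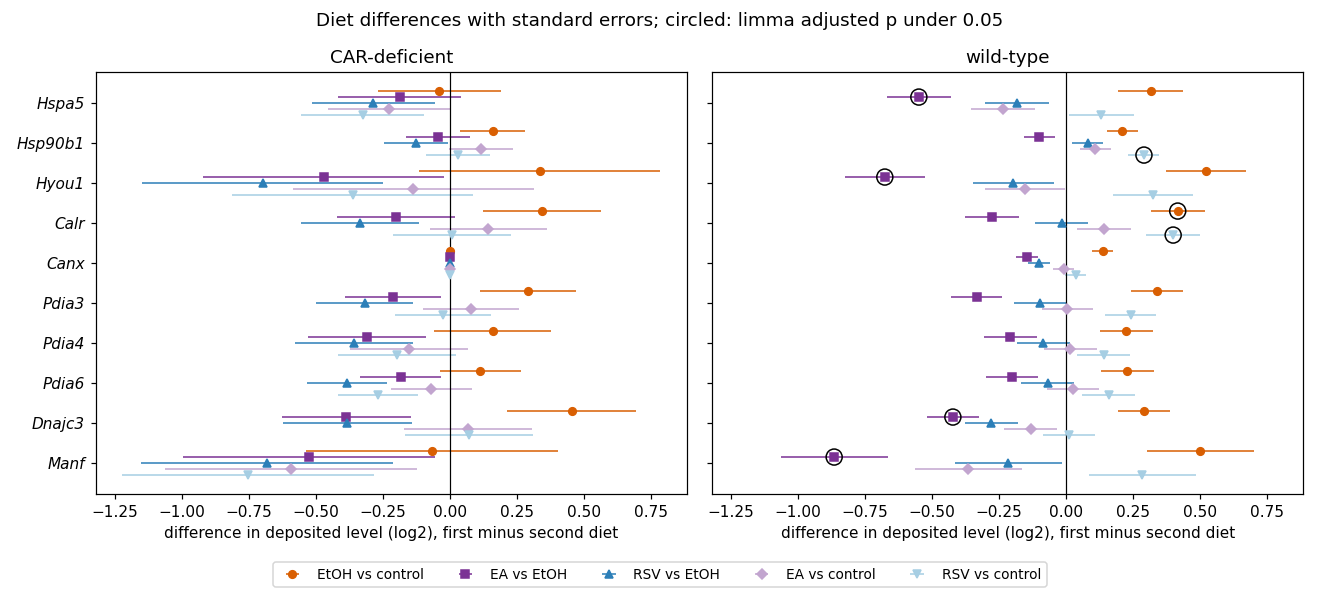
Difference of means between diets in deposited log2 level (horizontal axis) for the lead probe set of each gene, with limma's standard error as bars, in CAR-deficient mice (left, n = 3 per diet) and wild-type mice (right, n = 4 per diet). Circled points passed an adjusted p of 0.05, which are 7 gene and comparison pairs in wild-type mice and none in CAR-deficient mice, where the bars are wider and Canx is compressed.

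The levels of the genes varied together from mouse to mouse, also within a diet. Over the 16 wild-type arrays the 45 pairs of leads had a median r of 0.77, from 0.24 (Hsp90b1 and Dnajc3) to 0.97 (Hspa5 and Manf). After the diet means were removed the median was 0.72, with -0.1 for Pdia4 and Dnajc3 as the lowest. EtOH replicate 5 was the highest of all 16 arrays for 9 of the 10 genes (all except Dnajc3), and EtOH replicate 3 was the lowest EtOH array for 7 of them. With each gene scaled to a mean of 0 and an SD of 1, the means over the genes were -0.12, -0.63, -1.11 and -1.01 on the EA arrays, 0.68, 0.51, -0.36 and 0.7 on the RSV arrays, 0.9, -0.19, 0.91 and 2.07 on the EtOH arrays and -0.27, -0.76, -0.62 and -0.7 on the control arrays. EtOH replicate 3 and RSV replicate 3 therefore stood closer to the control arrays than to the others of their diet. Over all probe sets the mean r with the other wild-type arrays was 0.9943 for EtOH replicate 5, 0.9949 for EtOH replicate 3 and 0.9961 for RSV replicate 3. The lowest of the 16 was 0.9919, for control replicate 1. With 85.3% of probe sets compressed this r is a coarse check, and a technical cause was not tested.

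The calls that involve the EtOH diet of wild-type mice depended on single mice, unlike that of Hsp90b1 on the RSV diet. Without EtOH replicate 5 the median EtOH minus control difference of the 10 genes was 0.237, still with 10 above 0 but none called by limma, and the median EA minus EtOH difference was -0.229, with Manf alone called (-0.635, adjusted p = 0.04). Without EtOH replicate 3 they were 0.348, with 6 genes called higher, and -0.403, with 7 called lower. The call of Calr on the EtOH diet was kept in 5 of 16 refits with 1 array fewer, those without EtOH replicate 3, EA replicate 1 or RSV replicates 1, 3 or 4. Of the 4 falls on the EA diet, Hspa5 kept its call in 11 of 16 such refits, Hyou1 and Manf in 7 and Dnajc3 in 2. Hspa5 lost it without EtOH replicates 1 or 5 or EA replicates 2, 3 or 4. The sign of these differences was the same in each refit.

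**Figure D4:**
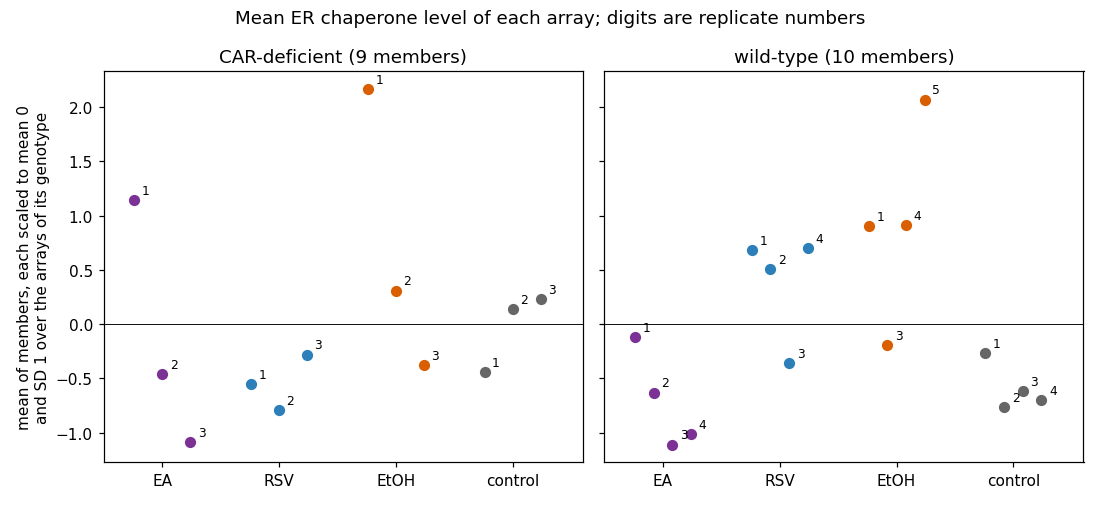
Mean level of the ER chaperone genes on each array (vertical axis, each gene scaled to a mean of 0 and an SD of 1 over the arrays of its genotype), by diet, in CAR-deficient mice (left, 9 genes) and wild-type mice (right, 10 genes), with the replicate number beside each point. EtOH replicate 1 (2.17) and EA replicate 1 (1.14) lie above the other CAR-deficient arrays, and EtOH replicate 5 (2.07) above the other wild-type arrays.

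In CAR-deficient mice no lead probe set passed in any of the 6 comparisons. Few probe sets passed at all: 0.344% for EtOH against control, 0.0% for EA against EtOH, 0.0% for RSV against EtOH, 0.18% for EA against control, 0.06% for RSV against control and 0.0% for EA against RSV. Canx, compressed in these mice, has no direction that can be read and is left out of the counts that follow. EtOH minus control was above 0 for 7 of the 9 other genes, with a median of 0.159. Without EtOH replicate 1 it was above 0 for 4 of 9, with a median of -0.016. Manf, 1 of the 2 genes with a lower EtOH mean, read 11.47, 10.32 and 9.89 on the EA arrays, 10.35, 10.21 and 10.63 on the RSV arrays, 11.91, 11.00 and 10.33 on the EtOH arrays and 10.96, 11.24 and 11.24 on the control arrays. The first EA and EtOH arrays were the highest of the 12, and the remaining EA arrays and all RSV arrays lay below the control arrays. EtOH minus control was -0.068, or -0.481 without EtOH replicate 1.

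**Figure D5:**
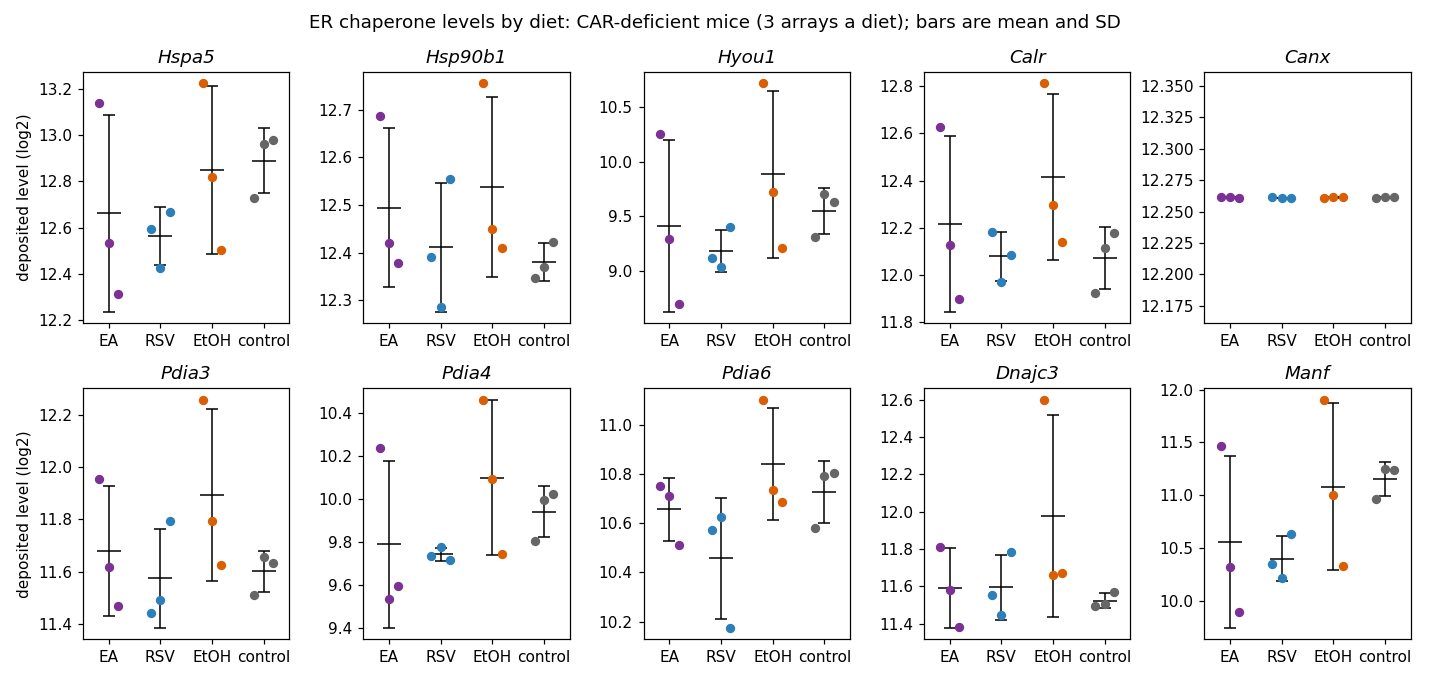
Deposited log2 level (vertical axis, its range differs between panels) of the lead probe set of each gene in CAR-deficient mice, by diet, with 1 point per array in order of replicate number and bars for mean and SD (n = 3). EtOH replicate 1 is the highest array for each of the 9 genes that are not compressed, and the Canx values are all 12.26.

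Hspa5 in CAR-deficient mice read 13.14, 12.54 and 12.32 on the EA diet, 12.59, 12.43 and 12.67 on the RSV diet, 13.22, 12.82 and 12.50 on the EtOH diet and 12.73, 12.96 and 12.98 on the control diet. Its EtOH and control arrays overlapped fully, with a difference of -0.04 ± 0.23 (SE, limma adjusted p = 0.97), or -0.227 without EtOH replicate 1 (adjusted p = 0.78). Hyou1 read 10.25, 9.29 and 8.69 on the EA diet, 9.12, 9.04 and 9.40 on the RSV diet, 10.72, 9.72 and 9.21 on the EtOH diet and 9.31, 9.70 and 9.63 on the control diet. Here too the spread within the EA and EtOH diets (SD 0.786 and 0.765) was larger than the differences between diets, 0.335 ± 0.45 for EtOH minus control (adjusted p = 0.83) and -0.471 ± 0.45 for EA minus EtOH (adjusted p = 0.81). Without EtOH replicate 1 these were -0.081 and -0.055, so that the sign of the first turned. Without EA replicate 1 instead, EA minus EtOH was -0.89 (adjusted p = 0.55). Calr read 12.63, 12.13 and 11.90 on the EA diet, 12.18, 11.97 and 12.09 on the RSV diet, 12.81, 12.30 and 12.14 on the EtOH diet and 11.92, 12.11 and 12.18 on the control diet. Its EtOH minus control difference was 0.344 ± 0.22 (adjusted p = 0.58), or 0.146 without EtOH replicate 1. Dnajc3 read 12.60, 11.66 and 11.67 on the EtOH diet and 11.50, 11.51 and 11.57 on the control diet, with all EtOH arrays above the control arrays (0.454 ± 0.24, adjusted p = 0.5). The difference was 0.142 without EtOH replicate 1 (adjusted p = 0.75).

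Of the others, Hsp90b1 differed between EtOH and control by 0.159 ± 0.12, Pdia3 by 0.292 ± 0.18, Pdia4 by 0.159 ± 0.22 and Pdia6 by 0.114 ± 0.15 (limma adjusted p = 0.58 to 0.83). Without EtOH replicate 1 the differences were 0.05 for Hsp90b1, 0.109 for Pdia3, -0.022 for Pdia4 and -0.016 for Pdia6. Against the EtOH diet, 9 of the 9 means other than that of Canx were lower on EA and 9 of 9 on RSV, none past the test. EA minus EtOH had a median of -0.213, or -0.053 without EtOH replicate 1, with 7 of 9 below 0, and RSV minus EtOH a median of -0.357, or -0.139 without it, with 9 of 9 below 0. EA replicate 1 was the highest EA array for these 9 genes. With that array left out instead, the median EA minus EtOH difference was -0.414 over all 10 leads, Canx included (lowest limma adjusted p = 0.46). The size of this difference thus depended on which single array was left out. The rank product called Manf lower on the EA diet than on control, 1 of 10, where 1.38% of probe sets were, and on the RSV diet than on control, 1 of 10, where 0.949% were. Here too the share of all probe sets is no like baseline, since most were compressed. A compressed Pdia6 probe set, 1430983_at, was called lower by limma on each ethanol diet against control, with differences of -0.0045 for EtOH, -0.00436 for EA and -0.00466 for RSV.

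Whether CAR deficiency changed the response was tested as the difference between CAR-deficient and wild-type mice in the same diet contrast. No lead probe set passed for EtOH against control, where 2.22% of probe sets did, for EA against EtOH, where 0.158% did, or for RSV against EtOH, where 0.0% did. Canx had the smallest adjusted p in the first contrast (0.15), in which its CAR-deficient values are compressed. For Hspa5 the EtOH minus control difference was -0.04 in CAR-deficient and 0.315 in wild-type mice (difference of differences -0.354 ± 0.24, limma adjusted p = 0.5), and EA minus EtOH was -0.187 in CAR-deficient and -0.55 in wild-type mice (0.364 ± 0.24, adjusted p = 0.75). Without the CAR-deficient EtOH replicate 1 array these differences of differences were -0.541 (adjusted p = 0.24) and 0.551 (adjusted p = 0.48). For Manf EtOH minus control was -0.068 in CAR-deficient and 0.5 in wild-type mice (-0.568 ± 0.46, adjusted p = 0.59), or -0.982 without that array (adjusted p = 0.24). The compressed Pdia6 probe set 1430983_at was called for EtOH against control, with a difference of differences of -0.00414 (adjusted p = 0.00015). The genotypes were summarised apart, so these sizes lie on different scales, and the larger spread among CAR-deficient mice sets how small a difference could be seen.

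Other folding genes of the ER were read from a list of 45, all measured, of which 19 had a compressed lead in wild-type mice. With EtOH against control 1 rose and 1 fell, 2.22% of the list each, close to or below the 2.2% and 3.35% of all probe sets. Hspa13, an ER-associated Hsp70, averaged 9.53 ± 0.29 on the EtOH and 9.12 ± 0.041 on the control diet (SD, n = 4 each, limma adjusted p = 0.048). Prdx4, an ER peroxiredoxin, averaged 11.04 ± 0.11 on the EtOH and 11.25 ± 0.03 on the control diet (adjusted p = 0.028). With EA against EtOH none rose and 4 fell (8.89%, against 1.26% of all probe sets), with differences of -0.512 for Hspa13, -0.442 for P4ha1, a subunit of collagen prolyl hydroxylase, -0.278 for Txndc5, a thioredoxin-domain isomerase, and -0.000346 for Ganab, glucosidase II alpha, whose probe set was compressed (adjusted p = 0.0095 to 0.045). With RSV against EtOH none was called. Against control, 2 rose and 8 fell on the EA diet (4.44% and 17.8%, against 6.06% and 8.15% of all probe sets) and 4 rose and 7 fell on the RSV diet (8.89% and 15.6%, against 9.07% and 10.7%). The shares that rose were thus below those of all probe sets. With 85.3% of all probe sets compressed, and fewer of this list, those shares are no like baseline for it. Pdia5 rose on both, by 0.366 and 0.322, the collagen chaperone Serpinh1 on both, by 0.139 and 0.189, and P4hb, the founding disulfide isomerase, on RSV by 0.198. Sil1 was called on RSV with a compressed probe set. Txndc11 (-0.602 and -0.458), P4ha1 (-0.475 and -0.339), Prdx4 (-0.313 and -0.296), the thiol oxidase Ero1a (-0.303 and -0.325) and Mogs, glucosidase I (-0.279 and -0.3), fell on EA and on RSV.

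Of 34 sensors, transcription factors and degradation genes of the unfolded protein response, 33 were measured, 12 with a compressed lead in wild-type mice. With EtOH against control 3 rose (9.09%, against 2.2% of all probe sets) and 1 fell (3.03%, against 3.35%). Those that rose were Selenos, a selenoprotein of the ER degradation complex, by 0.511 ± 0.063 (limma adjusted p = 0.0014), Xbp1, the transcription factor spliced by IRE1, by 0.398 ± 0.11 (adjusted p = 0.048) and Os9, a lectin of ER-associated degradation, by 0.273 ± 0.053 (adjusted p = 0.013). Mbtps2, the protease that cleaves ATF6, was called lower with a compressed probe set. With EA against EtOH 5 fell (15.2%, against 1.26% of all probe sets), with differences of -0.581 for the ubiquitin ligase Syvn1, -0.503 for the sensor kinase Eif2ak3 (PERK), -0.355 for Selenos, -0.336 for Edem3 and -0.304 for the conjugating enzyme Ube2g2 (adjusted p = 0.0085 to 0.015). Creb3l3, a liver transcription factor anchored in the ER, rose by 0.199, the 1 higher call (3.03%, against 1.1%). Edem3 and Ube2g2 also fell with RSV against EtOH (-0.34 and -0.283, adjusted p = 0.039 and 0.05), 6.06% of the list against 0.209% of all probe sets. Against control, 4 rose and 10 fell on the EA diet (12.1% and 30.3%, against 6.06% and 8.15% of all probe sets) and 5 rose and 6 fell on the RSV diet (15.2% and 18.2%, against 9.07% and 10.7%). For this list too the shares of all probe sets are no like baseline. Over uncompressed probe sets alone, limma called 13.7% lower for EA against EtOH. Against control it called 17.9% higher and 33.8% lower on EA, and 16.6% and 36.3% on RSV. The lists were not counted in that fit. Trib3, a pseudokinase downstream of ATF4 and CHOP, rose on EA by 0.997 and on RSV by 1.157, while Atf4 itself fell on both (-0.344 and -0.594). Creb3l3 rose on EA by 0.304 and on RSV by 0.149, Os9 by 0.274 and 0.273, Xbp1 on EA by 0.36, Selenos on RSV by 0.374 and Herpud1 on RSV by 0.479. Beside Atf4, the lower calls of largest size were Edem3 (-0.462), Fbxo6 (-0.354), Syvn1 (-0.35) and Eif2ak3 (-0.323) on EA, and Edem3 (-0.466), Derl2 (-0.213) and Ube2g2 (-0.198) on RSV. In CAR-deficient mice no gene of either list was called in any of the 6 comparisons. Over the uncompressed leads of wild-type mice, EtOH minus control was above 0 for 17 of 26 other folding genes, with a median of 0.052, and for 15 of 21 genes of the unfolded protein response, with a median of 0.085.

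The genes whose levels most resembled the mean of the 10 over the 16 wild-type arrays were sought among 3847 other genes with an uncompressed lead. Dnajb11, an ER J-domain cochaperone of BiP, was nearest, with r = 0.975 over the 12 CAR-deficient and 0.985 over the 16 wild-type arrays, and 0.969 in wild-type mice after the diet means were removed. It was followed by Ssr1, a subunit of the translocon-associated complex (r = 0.68 in CAR-deficient and 0.919 in wild-type mice), Slc35b1, a nucleotide transporter of the ER membrane (0.906 in CAR-deficient and 0.915 in wild-type mice), Sec61b, a subunit of the protein-conducting channel (0.536 in CAR-deficient and 0.909 in wild-type mice), and Selenok (0.822 in CAR-deficient and 0.906 in wild-type mice). Of the 20 nearest, 4 belonged to the list of other folding genes (Dnajb11, Sdf2l1, Hspa13 and Creld2) and 1, Selenos, to the unfolded protein response list. These correlations share arrays and diets with the results above and are descriptions.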

How the data were processed

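Per the labels, liver RNA of 28 mice was hybridized to whole-genome Affymetrix arrays. The deposited values are log2 levels, made by the authors with DFW in R for each of the 2 genotypes on its own. The file held 45101 probe sets, of which 64 controls were set aside and 26, blank on the CAR-deficient arrays, left out there. Probe sets were named from the platform annotation (34945 with 1 gene, 932 with several, 9160 unnamed), and no further normalization was applied. The 10 genes and the lists of related genes and cell markers were chosen with earlier results of these data known. Named from the lists were the 5 called genes of largest difference in each direction, and the 5 genes most like the 10. Diets were compared by limma 3.58.1 in R 4.3.3 (lmFit and eBayes, 4 diets per fit, Benjamini-Hochberg over all probe sets, threshold 0.05), and genotypes as an interaction over 28 arrays. Nothing tells whether mice shared a cage or litter. The p-values treat the mice as independent, and would be too small if mice of a diet shared one. Alternatives were the rank product (50 permutations), unmoderated or trended variances, quantile normalization, filters on level and spread, a replicate block, the 2 diets alone, other probe sets and leaving out each array. The code was tested on simulated data. Residuals of arrays with the same replicate number correlated above 0.1 in 4 of 18 CAR-deficient and 12 of 21 wild-type pairs, and in each pair only for wild-type EA against control and CAR-deficient EtOH against control, where the block changed no call of the 10 genes. The number of arrays limits the precision. Sequences were read from RefSeq tables.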

Additional observations from a re-analysis of the deposited data

Results flagged for a closer look

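In 40 gene and diet groups of 4 wild-type arrays, 2 had an array far from the other 3 by Dixon's criterion, which chance gives for about 1 group in 20. Hyou1 read 8.76 on control replicate 2, and 8.96 to 8.98 on the other control arrays. Pdia3 read 10.82 on RSV replicate 3, and 10.99 to 11.03 on the other RSV arrays. The cause of neither was tested.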

How the results depend on the processing

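By limma, 1 of the 10 genes was called higher with EtOH against control in wild-type mice. The number was 5 with only probe sets above the median level (where 4.74% of those tested were called higher) and 6 with only uncompressed probe sets (9.38%). It was 7 after quantile normalization (26.1% higher and 7.7% lower, against 2.2% and 3.35% before it) and 2 with a replicate block (1.27%). With the most specific probe set as lead it was 2, and 5 if any probe set of the gene counted, compressed ones included. The rank product gave 10 at 0.05 (2.32%) and 7 at 0.025. The 2 diets fitted alone gave 0 (0.522%), and leaving out 1 array gave 0 to 6. With EA against EtOH, 4 were called lower by limma (1.26% of all probe sets). The number was 2 without moderation (1.07%), 2 after quantile normalization (0.797%) and 1 with a replicate block (0.702%). It was 0 with the 2 diets fitted alone (0.138%), 7 by the rank product at 0.05 (3.08%), and 0 to 7 when 1 array was left out. Fewer tests under the filters, and fewer arrays with 2 diets alone, are part of how those alternatives are built. Otherwise the cause of the shifts was not tested. With RSV against control, 2 genes were called higher by limma (9.07% of all probe sets). The number was 6 if any probe set counted, compressed ones included, and 6 by the rank product at 0.05 (3.23%) and at 0.025. It was 1 to 3 when 1 array was left out (1 without control replicate 3 or RSV replicate 1, which ended the call of Calr). Where limma called none, the rank product called lower 1 gene for RSV against EtOH at 0.05 and at 0.025, 2 at 0.05 and 1 at 0.025 for EA against control, 7 and 6 for EA against RSV, and in CAR-deficient mice 1 at 0.05 for EA against control and 1 at both thresholds for RSV against control. Counting any probe set gave 1 higher and 1 lower for wild-type EA against control and 1 lower for each ethanol diet against control in CAR-deficient mice, from compressed probe sets. The genotype difference in EtOH against control gave 0 to 1 lower when 1 array was left out. No called gene changed sign under an alternative. Of the 792 counts computed, 735 lay within 1.5 times their main value, but many of them were 0 throughout. In wild-type mice with 1 array left out, the count called higher with EtOH against control did so in 5 of 16 refits. The count called lower with EA against EtOH did so in 4 of 16, and that called higher with RSV against control in 14 of 16. The replicate block moved no other count of these genes beyond 1.5 times. With 3 or 4 arrays a diet, and most probe sets compressed, small changes of dim probe sets could not be seen.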
